A study of Mus musculus with 19 samples.

Results

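The genes of glycolysis and of the response to low oxygen were followed in mouse medulloblastomas that had been treated with a Hedgehog pathway inhibitor. The set was a list of 34 symbols, chosen by name, and its members were all probe sets that the platform annotation gives to these symbols alone. Of the 34 genes, 30 had such probe sets, 67 in all, and the 30 were read against 13454 genes tested. Gapdh was represented by control probe sets, which are described separately. The probe sets of Bnip3l are shared with its pseudogene and were not used, and Gpi1 and Eno1 were not analysed here. Cells dissociated from Ptch+/-p53-/- tumours were placed under the skin of the flank of nu/nu mice. This genotype lacks p53 and has 1 disrupted copy of the Hedgehog receptor gene Ptch. The state of the other copy in the tumours was not examined. The inhibitor was NVP-LDE225, an antagonist of Smoothened, and dosing began about 10 days after implantation. There were 3 vehicle tumours, whose status is given as sensitive, 8 tumours given 40 mg/kg and 8 given 160 mg/kg, whose status is given as resistant, so drug and resistance form 1 contrast. All 19 tumours share the genotype and the host strain. Each was hybridised on 1 Affymetrix array, and the labels do not say whether tumours of a group came from separate donors, so the p-values reflect only the variation seen among these tumours.

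When oxygen is scarce, the hypoxia-inducible factors (HIF) escape the prolyl hydroxylases of the Egln family, which otherwise mark them for destruction through Vhl, and they switch on genes that carry a short hypoxia response element. Their best known targets form blood vessels (Vegfa), bring glucose into the cell (Slc2a1), drive glycolysis and turn mitochondria down (Pdk1, Bnip3). Precursors of granule neurons and the Hedgehog-driven tumours that arise from them are also known for glycolysis in the presence of oxygen, with hexokinase Hk2 as the enzyme most often named.

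The promoters of 5 members are shown because they belong to the 4 genes that followed Vegfa most closely from tumour to tumour and to Hk2, which did not follow it. They are the 250 bases before the transcription start in RefSeq, build GRCm38.p6, 5′ to 3′ on the gene's strand, and for a gene with several starts the window with the most matches is given. Slc2a1 lies at chr4:119108495-119108744 on the plus strand, Pdk1 at chr2:71872974-71873223 on the plus strand, Bnip3 at chr7:138909507-138909756 on the minus strand, Pfkfb3 at chr2:11502091-11502340 on the minus strand and Hk2 at chr6:82774455-82774704 on the minus strand. Capitals mark the core letters of the hypoxia response element, ACGTG or GCGTG, on either strand.
Slc2a1: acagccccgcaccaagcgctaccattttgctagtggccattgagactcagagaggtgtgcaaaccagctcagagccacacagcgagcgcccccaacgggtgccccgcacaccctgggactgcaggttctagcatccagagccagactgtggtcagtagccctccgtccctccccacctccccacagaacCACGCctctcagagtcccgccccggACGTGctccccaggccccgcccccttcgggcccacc
Pdk1: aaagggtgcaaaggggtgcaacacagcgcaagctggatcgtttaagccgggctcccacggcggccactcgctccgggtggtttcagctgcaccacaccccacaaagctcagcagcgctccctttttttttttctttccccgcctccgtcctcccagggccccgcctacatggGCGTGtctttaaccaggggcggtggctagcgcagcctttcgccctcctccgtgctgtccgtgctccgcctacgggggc
Bnip3: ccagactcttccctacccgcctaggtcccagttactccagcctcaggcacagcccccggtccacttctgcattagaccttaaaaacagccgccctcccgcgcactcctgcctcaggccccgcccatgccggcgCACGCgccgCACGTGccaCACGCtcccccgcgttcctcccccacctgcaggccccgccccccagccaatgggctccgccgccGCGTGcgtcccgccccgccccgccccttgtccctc
Pfkfb3: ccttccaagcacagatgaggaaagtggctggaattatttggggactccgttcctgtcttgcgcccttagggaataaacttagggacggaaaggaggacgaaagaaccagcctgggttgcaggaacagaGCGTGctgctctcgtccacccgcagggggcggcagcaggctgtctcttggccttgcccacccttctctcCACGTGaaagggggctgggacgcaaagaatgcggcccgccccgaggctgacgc
Hk2: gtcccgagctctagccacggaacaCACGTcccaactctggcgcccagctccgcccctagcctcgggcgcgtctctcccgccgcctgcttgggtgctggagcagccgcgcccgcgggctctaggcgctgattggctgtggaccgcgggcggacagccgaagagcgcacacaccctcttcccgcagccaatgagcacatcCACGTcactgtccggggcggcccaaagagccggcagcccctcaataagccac
The run CACGTG in Bnip3 and Pfkfb3 holds the core on both strands and is also the E-box that Myc and other basic helix-loop-helix factors bind. Of the 34 listed genes, 31 had a window, and 29 of these (93.5%) held the core at 1 start or more. The same letters were present for 41.5% of 27025 genes with a window and for 59.9% of the 10819 such genes that were tested on the arrays. Per window, the share was 80.4% of 46 for the listed genes and 38.6% of 32851 for all genes, and CACGTG occurred in 8.7% and 6.02%. Tpi1 and Gpi1 held no match. The presence of the core did not separate the members that followed Vegfa from the others, since it was found in 10 of 10 members with a correlation above 0.8 and in 16 of 17 below it. Slc2a3, Ndrg1 and Bnip3l were not matched to a window.

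Signal is the MAS5 summary of a probe set on a linear scale. The medians of the arrays lay between 32.7 and 49.7, and precision is limited by how many arrays there are. Vehicle tumour 3, which had the highest median, and 160 mg/kg tumour 2 were least like the other arrays, with mean correlations of 0.915 and 0.916. The markers of medulloblastoma and granule neuron precursors were present in every group. Their summed signals were 8687 to 9106 with vehicle, 11988 to 14348 at the lower dose and 8717 to 16258 at the higher. Of the 8 markers, 2 (Zic1 and Neurod1) rose in resistant tumours, where 2.86% of all genes rose. Both calls were lost without vehicle tumour 2 and without vehicle tumour 3. Skin epithelium markers summed to 5193 to 5929 with vehicle, 2259 to 5331 at the lower dose and 298.7 to 3410 at the higher, and 0 of 3 passed the test. Muscle markers spanned 267.7 to 17630 among treated tumours, the highest being 40 mg/kg tumour 5, and 1501 to 3950 among vehicle tumours. Of these markers, 0 of 10 passed. Of 6 endothelial markers, 5 were lower by sign in resistant tumours (median log2 difference -0.28, and -0.43 at 160 mg/kg), and 1 fell, the Vegfa receptor Flt1, which was below every vehicle tumour in 16 of 16 treated tumours (log2 difference -0.71, SE 0.17, adjusted p = 0.0217, and -0.86 at 160 mg/kg, SE 0.18, adjusted p = 0.0119). Of all genes, 2.46% fell in resistant tumours and 2.45% at 160 mg/kg. The call on Flt1 in resistant tumours was lost without vehicle tumour 1 and without vehicle tumour 3, and at 160 mg/kg without vehicle tumour 3. In whole tumours, fewer cells of a type and less RNA per cell cannot be told apart. The part of these other cells in the values below was not tested.

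**Figure D1:**
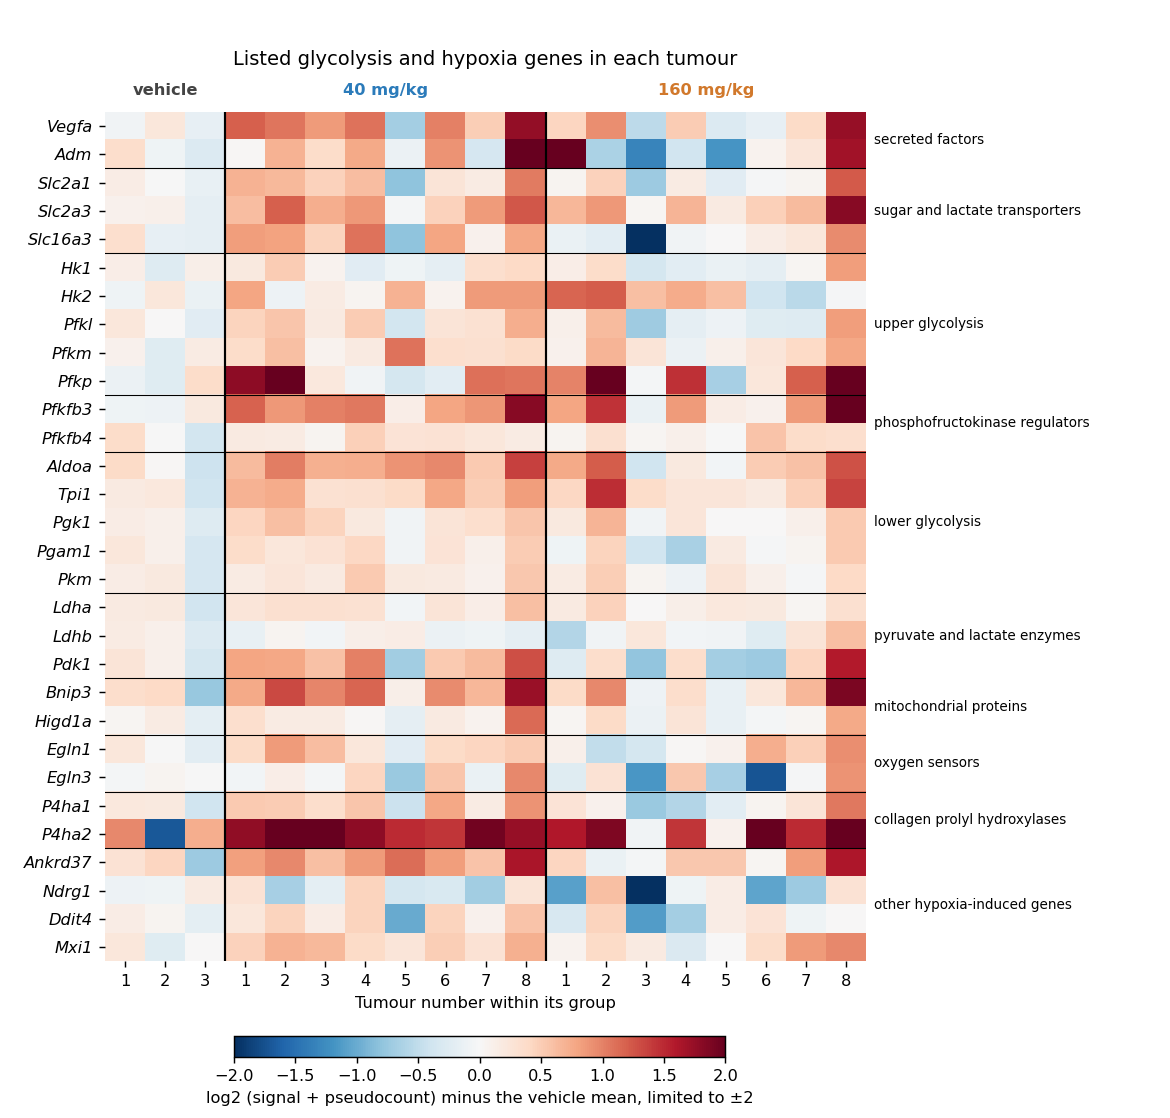
Each row is a listed gene, grouped by role, and each column is a tumour, and colour is log2 (signal + 2.5) minus the mean of the 3 vehicle tumours, limited to ±2. Tumour 8 of each dose is red over most rows, and 160 mg/kg tumour 3 and 40 mg/kg tumour 5 are blue for Vegfa, Slc2a1, Slc16a3 and Pdk1.

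The comparison of all resistant tumours with vehicle asked whether the set as a whole shifted. Most levels were higher by sign, but 0 of 30 members passed the test, which was limma on log2 (signal + 2.5), with p-values adjusted over 31143 probe sets and a threshold of 0.05. Of all genes, 5.32% passed. At an unadjusted p under 0.05, 8 members were higher and 0 lower, where 10.3% of all genes were higher and 1762 of 13454 were lower. By sign alone, 27 of 30 members were higher in resistant tumours, against 42.5% of all genes. The median log2 difference was 0.29 over the members and -0.06 over all genes. At 40 mg/kg, 0 of 30 passed (2.56% of genes), 11 were higher at the unadjusted threshold (9.6% of genes) and 28 were higher by sign (43.8%). At 160 mg/kg, 0 of 30 passed (4.91% of genes), 4 were higher at the unadjusted threshold (9.47%) and 26 were higher by sign (41.9%). Both doses share the 3 vehicle tumours. Vehicle tumour 3 was the lowest of all 19 tumours for 10 of 30 members, and it was the lowest for 7.73% of genes. Without it, the median log2 difference of the members was 0.17 for resistant tumours, with 25 of 30 higher. It was then 0.33 at 40 mg/kg, with 28 higher, and 0.07 at 160 mg/kg, with 20 higher. Among single members, leaving out vehicle tumour 3 made the difference in resistant tumours smaller by over 1.5 times in 14 of 30, larger by as much in 2, and turned its sign in 2. With any 1 of the 19 arrays left out in turn, 22 of 30 moved this far or turned in at least 1 fit. Without 160 mg/kg tumour 8, 18 of 30 were higher at 160 mg/kg (median 0.15). Quantile normalization gave 26 members higher in resistant tumours and subtraction of array medians gave 29, while array weights gave 22 (median 0.16), with 27 at 40 mg/kg (median 0.29) and 18 at 160 mg/kg (median 0.06).

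The difference was largest, with all tumours included, for P4ha2, a prolyl hydroxylase that modifies collagen in the endoplasmic reticulum, and it rested in part on vehicle tumour 2. Its signal was 24.6, 1.8 and 20.6 in the vehicle tumours, from 34.9 to 61.4 with a median of 45.2 at 40 mg/kg, and from 10.7 to 99.7 with a median of 38.2 at 160 mg/kg. All 8 tumours at 40 mg/kg, and 6 of 8 in the higher dose group, were above every vehicle tumour. The log2 difference of resistant from vehicle was 1.61 (SE 0.49, adjusted p = 0.064), 1.80 at 40 mg/kg (SE 0.53, adjusted p = 0.0787) and 1.43 at 160 mg/kg (SE 0.53, adjusted p = 0.13). The value of 1.8, in vehicle tumour 2, lies below the pseudocount of 2.5. Without that tumour the difference of P4ha2 was 0.77 for resistant tumours (adjusted p = 0.384), 0.95 at 40 mg/kg and 0.59 at 160 mg/kg, and Bnip3 (0.95), Ankrd37 (0.92) and Pfkfb3 (0.81) then had larger ones. Without 160 mg/kg tumour 3 it was 1.72 and without 160 mg/kg tumour 5 it was 1.71, and P4ha2 passed in both of these fits. Its relative P4ha1 was 302, 298 and 196 with vehicle, 192 to 487 at the lower dose and 154 to 544 at the higher, and the groups overlapped (log2 difference 0.22, SE 0.27, adjusted p = 0.668, and 0.02 without vehicle tumour 3). The dimmer probe set of P4ha1 gave 0.57 with all tumours included.

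Among the secreted factors, Vegfa, the growth factor of blood vessels, had signals of 184, 226 and 172 in vehicle tumours. At 40 mg/kg it ran from 119 to 659 with a median of 400, and at 160 mg/kg from 134 to 648 with a median of 256. Treated tumours lay on both sides of vehicle, 12 of 16 above all vehicle tumours and 3 below all of them. The log2 difference was 0.61 for resistant tumours (SE 0.38, adjusted p = 0.36), 0.85 at 40 mg/kg (SE 0.41, adjusted p = 0.264) and 0.38 at 160 mg/kg (SE 0.41, adjusted p = 0.631). Adm, the vasodilator adrenomedullin, was 142, 104 and 90.3 in vehicle tumours and reached from 42.4 to 606 at 160 mg/kg (log2 difference 0.33, SE 0.57, adjusted p = 0.771).

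Of the transporters, Slc2a3, the glucose carrier of neurons, was above vehicle in the most tumours. It was 552, 555 and 458 in vehicle tumours, 504 to 1238 with a median of 903 at 40 mg/kg, and 534 to 1834 with a median of 816 at 160 mg/kg. In 14 of 16 treated tumours it exceeded all vehicle tumours, and 7.07% of genes did so in at least 14. The log2 difference was 0.70 (SE 0.26, adjusted p = 0.119), with 0.74 at 40 mg/kg (SE 0.28, adjusted p = 0.15) and 0.67 at 160 mg/kg (SE 0.28, adjusted p = 0.179). A dimmer probe set of Slc2a3 was the 1 of 67 that passed (log2 difference 1.01, adjusted p = 0.045), and 4.47% of all probe sets passed. Slc2a1, the widespread glucose carrier, was 362, 325 and 294 in vehicle tumours and 186 to 671 at 40 mg/kg (log2 difference of resistant tumours 0.25, SE 0.30, adjusted p = 0.646). Slc16a3, which exports lactate, was dim, at 32.4, 22.1 and 21.8 in vehicle tumours, with medians of 44.8 at 40 mg/kg and 24.4 at 160 mg/kg (log2 difference 0.15, SE 0.45, adjusted p = 0.874).

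In upper glycolysis, where glucose is phosphorylated and committed, 5 of 5 members measured were higher by sign and 0 passed. Hk2 was 1324, 1635 and 1275 in vehicle tumours and ran from 1312 to 2541 at 40 mg/kg and from 966 to 3258 at 160 mg/kg (log2 difference 0.42, SE 0.30, adjusted p = 0.417). Its medians, 1919 and 2126, were above all vehicle tumours, yet 7 of 16 treated tumours were not. Hk1, the constitutive hexokinase, differed by 0.09 at its brighter probe set (SE 0.19, adjusted p = 0.811) and by 0.78 at its dimmer one (SE 0.40, adjusted p = 0.264), and the mean of both gave 0.44 (adjusted p = 0.362). Pfkp, the platelet-type phosphofructokinase, was 49.2, 44.5 and 69.2 in vehicle tumours, 41.4 to 272 with a median of 88.2 at 40 mg/kg, and 32.6 to 447 with a median of 117 at 160 mg/kg. The signal of Pfkp thus spanned a 13.7-fold range among treated tumours, with a log2 difference of 0.87 for resistant tumours (SE 0.58, adjusted p = 0.385), 0.73 at 40 mg/kg (SE 0.62, adjusted p = 0.538) and 1.02 at 160 mg/kg (SE 0.62, adjusted p = 0.363). The muscle-type Pfkm was 294, 233 and 311 in vehicle tumours and higher than that in 12 of the 16 treated ones (log2 difference 0.36, SE 0.18, adjusted p = 0.251). The liver-type Pfkl differed by 0.17 (SE 0.24, adjusted p = 0.704).

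Pfkfb3 makes fructose 2,6-bisphosphate, the strongest activator of phosphofructokinase. It was 91.8, 90.8 and 113 in vehicle tumours, 108 to 352 with a median of 191 at 40 mg/kg, and 89 to 422 with a median of 175 at 160 mg/kg. It exceeded every vehicle tumour in 12 of 16 treated tumours, and the lowest treated tumours overlapped with vehicle. The log2 difference was 0.87 (SE 0.33, adjusted p = 0.136), with 0.97 at 40 mg/kg (SE 0.36, adjusted p = 0.146) and 0.76 at 160 mg/kg (SE 0.36, adjusted p = 0.232). The dimmer probe set of Pfkfb3 gave 0.39 for resistant tumours. Pfkfb4, its relative, varied little, from 69.9 to 106 over the treated tumours (log2 difference 0.23, SE 0.14, adjusted p = 0.373).

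In lower glycolysis, which turns triose phosphates into pyruvate, 5 of 5 members were higher by sign and 0 passed. Aldoa, the aldolase, was 2536, 1970 and 1458 in vehicle tumours, 2780 to 5026 with a median of 3414 at 40 mg/kg, and 1467 to 4667 with a median of 2833 at 160 mg/kg. All 8 tumours at the lower dose and 5 of 8 at the higher were above every vehicle tumour. Its log2 difference was 0.68 (SE 0.25, adjusted p = 0.124), with 0.86 at 40 mg/kg (SE 0.27, adjusted p = 0.0973) and 0.51 at 160 mg/kg (SE 0.27, adjusted p = 0.3). Over the 5 probe sets of Aldoa the difference ran from -0.11 to 0.68, so its direction depends on the probe set. Tpi1, triose phosphate isomerase, was 2041, 2095 and 1373 in vehicle tumours, 2233 to 3216 with a median of 2724 at 40 mg/kg, and 2052 to 5052 with a median of 2370 at 160 mg/kg. Of the 16 treated tumours, 15 exceeded every vehicle tumour. Its log2 difference was 0.58 (SE 0.22, adjusted p = 0.133), with 0.57 at 40 mg/kg (SE 0.24, adjusted p = 0.197) and 0.60 at 160 mg/kg (SE 0.24, adjusted p = 0.163). Without vehicle tumour 3 the difference of Tpi1 in resistant tumours was 0.38. The kinase Pgk1, the mutase Pgam1 and the pyruvate kinase Pkm differed by 0.28, 0.14 and 0.22, and vehicle tumour 3 was the lowest of their vehicle tumours, at 2768, 1546 and 1790. Without it the differences were 0.15 for Pgk1, -0.03 for Pgam1, which thus turned sign, and 0.05 for Pkm.

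Gapdh was read from the 3 control probe sets along its transcript. At the 3′ end it was 6007, 6365 and 4579 with vehicle, 6138 to 7166 at the lower dose and 5778 to 8016 at the higher. The log2 difference of treated from vehicle tumours was 0.22 at the 3′ end, 0.22 in the middle and 0.27 at the 5′ end, with two-sided exact permutation p = 0.0464, 0.0351 and 0.0155 over 969 choices of 3 arrays (0.0464 for each after adjustment over the 3 probe sets). Without vehicle tumour 3 the differences were 0.08, 0.09 and 0.11, with exact permutation p = 0.431, 0.373 and 0.229.

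At the fate of pyruvate, Ldha, which makes lactate, was 4261, 4278 and 2888 in vehicle tumours and 3598 to 5668 over the treated tumours (log2 difference 0.23, SE 0.12, adjusted p = 0.259). Without vehicle tumour 3 the difference of Ldha was 0.04. Ldhb, the other lactate dehydrogenase subunit, showed a difference of -0.01 (SE 0.16, adjusted p = 0.975). Pdk1, the kinase that blocks entry of pyruvate into mitochondria, was 358, 320 and 235 in vehicle tumours, 183 to 735 with a median of 489 at 40 mg/kg, and 173 to 904 with a median of 316 at 160 mg/kg. At 160 mg/kg it lay on both sides of vehicle, and the log2 difference of resistant tumours was 0.32 (SE 0.38, adjusted p = 0.645).

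Bnip3, which removes mitochondria by mitophagy, was 872, 900 and 400 in vehicle tumours, 735 to 2258 with a median of 1324 at 40 mg/kg, and 615 to 2500 with a median of 879 at 160 mg/kg. In 10 of 16 treated tumours it exceeded all vehicle tumours. Its log2 difference was 0.74 (SE 0.33, adjusted p = 0.197), with 0.96 at 40 mg/kg (SE 0.36, adjusted p = 0.146) and 0.53 at 160 mg/kg (SE 0.36, adjusted p = 0.415). Without vehicle tumour 3, at 400, these became 0.36, 0.58 and 0.15. Higd1a, a small protein of the respiratory chain, differed by 0.19 (SE 0.19, adjusted p = 0.582), and its 3 probe sets ran from 0.19 to 0.74.

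Both oxygen sensors and the remaining targets did not share a direction. Egln1 differed by 0.29 (SE 0.23, adjusted p = 0.471), and its 2 probe sets differed in sign. Egln3 had the tightest vehicle values of the set, 256, 273 and 263, while the treated tumours spread from 77.9 to 515, with 7 above and 7 below all vehicle tumours (log2 difference -0.06, SE 0.38, adjusted p = 0.944). Ankrd37, a HIF target of unsettled function, was 86.7, 95.4 and 41.5 in vehicle tumours, 106 to 224 with a median of 128 at 40 mg/kg, and 63.7 to 220 with a median of 99 at 160 mg/kg. All tumours at 40 mg/kg were above every vehicle tumour and 4 of 8 at 160 mg/kg were. Its log2 difference was 0.70 (SE 0.29, adjusted p = 0.159), with 0.93 at 40 mg/kg (SE 0.31, adjusted p = 0.11) and 0.48 at 160 mg/kg (SE 0.31, adjusted p = 0.391). Without vehicle tumour 3, at 41.5, these became 0.34, 0.56 and 0.11. The Myc antagonist Mxi1 differed by 0.40 (SE 0.18, adjusted p = 0.212). Ddit4, which restrains mTOR, was at 0.00 (SE 0.27, adjusted p = 0.998). Ndrg1, a stress-induced gene of differentiation, was lower by sign in resistant tumours (log2 difference -0.35, SE 0.41, adjusted p = 0.645), with 9 of 16 treated tumours below all vehicle tumours, and its 5 probe sets ran from -0.35 to 0.09.

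**Figure D2:**
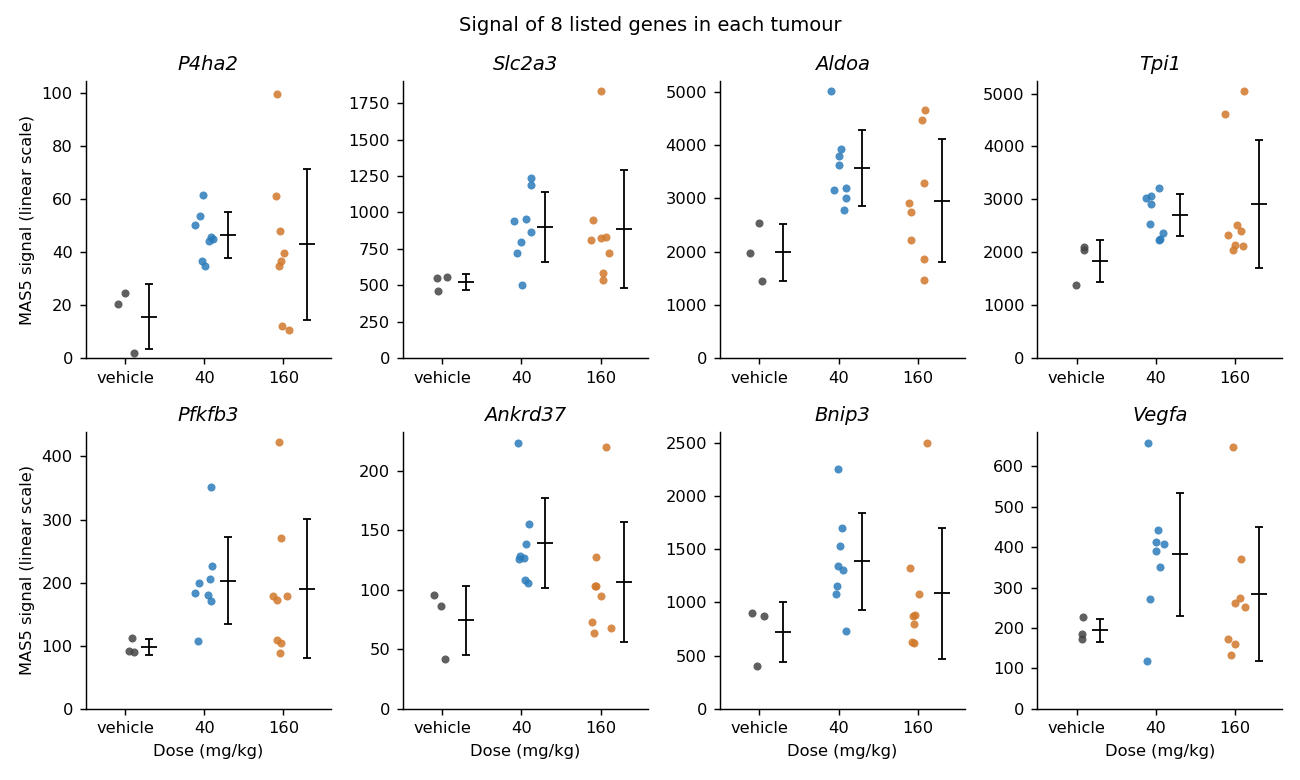
Points are single tumours on a linear signal axis from 0, and the bar beside each group is its mean ± SD (n = 3, 8 and 8). P4ha2, Aldoa and Ankrd37 at 40 mg/kg lie above every vehicle tumour, whereas Vegfa and Bnip3 overlap with vehicle at both doses.

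The 2 doses were compared to ask whether the levels differed between resistant tumours. By sign, the members were mostly lower at the higher dose, with 4 of 30 higher at 160 than at 40 mg/kg, against 45.5% of genes, and a median log2 difference of -0.23. None of the 30 passed with limma, nor did any gene (0% of 13454), and 0 members had an unadjusted p under 0.05, a threshold that 7.42% of genes met. The members with the largest differences were Slc16a3 (-0.70, SE 0.36, adjusted p = 0.748), Pdk1 (-0.58, SE 0.30, adjusted p = 0.752), Vegfa (-0.47, SE 0.30, adjusted p = 0.801) and Ankrd37 (-0.45, SE 0.23, adjusted p = 0.745). The ranges of the 2 doses overlapped for each of these 4 genes. Single tumours moved the median, to -0.13 without 160 mg/kg tumour 3 and to -0.35 without 160 mg/kg tumour 8, with 5 and 2 members then higher at the higher dose.

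**Figure D3:**
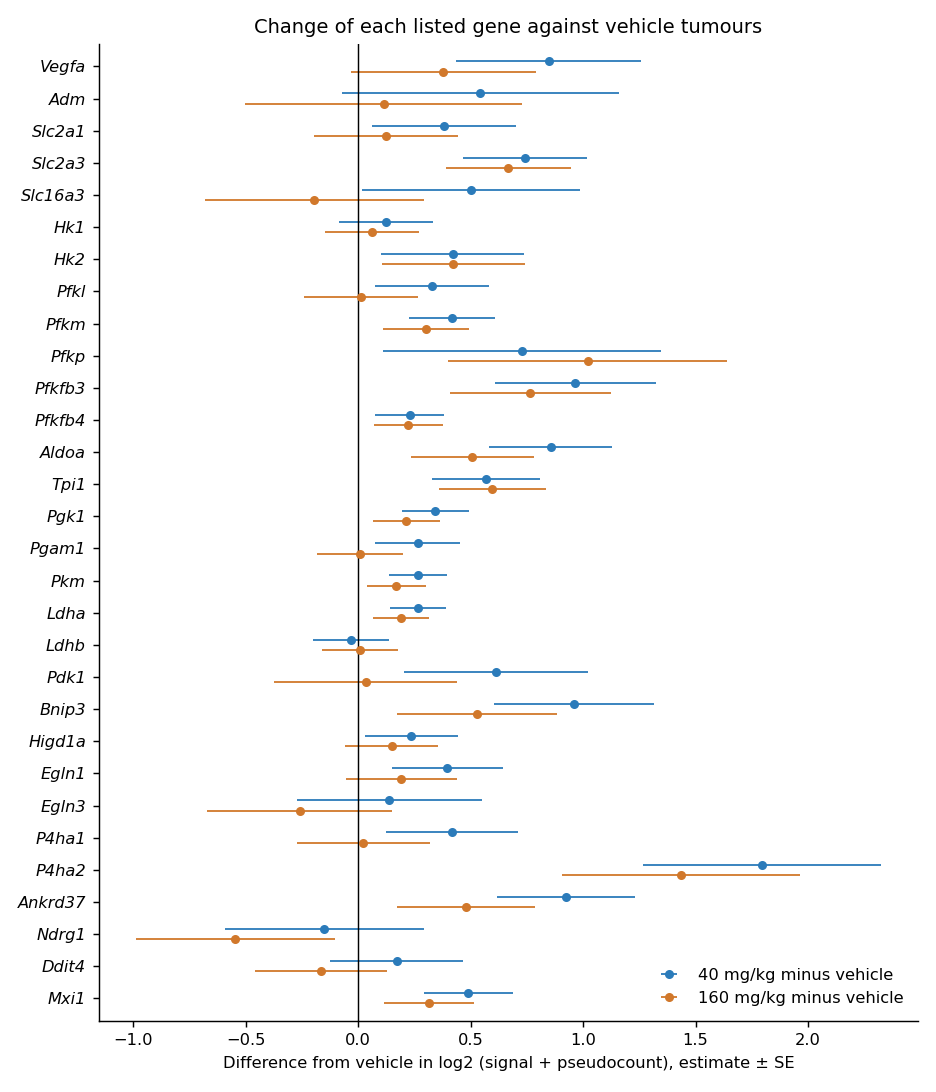
Each gene's log2 difference from vehicle is shown with its SE for 40 mg/kg and 160 mg/kg, both against the same 3 vehicle tumours. Of the 30 genes, 28 lie to the right of 0 at 40 mg/kg and 26 at 160 mg/kg, and most SE bars of the 2 doses overlap.

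Beyond the group means, the treated tumours differed among themselves, and the members did so together. The median SD of log2 signal over the 16 treated tumours was 0.47 for the members and 0.31 for all genes. In signal, the highest treated tumour stood 22.4-fold above the lowest for Slc16a3, whose lowest value was 2.5, 14.3-fold for Adm and 13.7-fold for Pfkp, the widest ranges of the 30. The narrowest were those of Ldha, Pkm and Pfkfb4, at 1.58-fold, 1.55-fold and 1.51-fold. The high values fell in a few tumours. Among treated tumours, 160 mg/kg tumour 8 was the highest for 14 of 30 members and 40 mg/kg tumour 8 for 8, and these tumours were the highest for 7.82% and 6% of all genes. At the other end, 160 mg/kg tumour 3 was the lowest for 12 members and 40 mg/kg tumour 5 for 5, against 8.99% and 8.56% of all genes.

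Vegfa, the usual marker gene of the hypoxia response, was related to the other members across the 16 treated tumours by Pearson's r of log2 signal. P-values are from 100000 permutations, two-sided, and were adjusted over all 13453 other genes. Of the 29 other members, 28 had r above 0, with a median of 0.68 against 0.06 for all genes. In 11 members r exceeded 0.8, as it did in 23 of all genes (0.171%). Of all genes, 15 passed at an adjusted p under 0.05 (0.111%), and 10 of the 15 were listed members, all with r above 0 (0.104% of genes).

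The 5 genes with the highest r among all 13453 were members, each with another role. Slc2a1 ranked highest with r = 0.97 (Spearman's rho 0.98), and it was 186 and 196 in the 2 tumours with least Vegfa, and 671 and 770 in the 2 with most. Pdk1 came next (r = 0.95, rho 0.91), going from 183 and 173 in the same low tumours to 735 and 904 in the high ones. Bnip3 followed (r = 0.94, rho 0.91), with 735 and 631 against 2258 and 2500. Pfkfb3 (r = 0.93, rho 0.86) and Pfkl (r = 0.91, rho 0.90) completed them. These 5 had permutation p = 1e-05, the smallest that the permutations can give, and an adjusted p = 0.0192. The other members that passed were Slc2a3 (r = 0.87), P4ha1 (r = 0.86), Pgk1 (r = 0.85), Egln3 (r = 0.85) and Higd1a (r = 0.83), with adjusted permutation p from 0.0192 to 0.0384. Each r rests on 1 probe set per gene. The lowest correlation between probe sets of a gene over the treated tumours was 0.55 for Pfkl, 0.49 for Pgk1 and 0.56 for Slc2a3. Among the other members that passed, it was 0.73 for Higd1a and higher for the rest, except Bnip3, which has 1 probe set. By Spearman's rho, 2 members, Slc2a1 and Bnip3, passed over all genes (adjusted permutation p = 0.0448 for each). Ldha had r = 0.80 (adjusted permutation p = 0.0861) and Slc16a3 r = 0.77 (adjusted permutation p = 0.076).

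**Figure D4:**
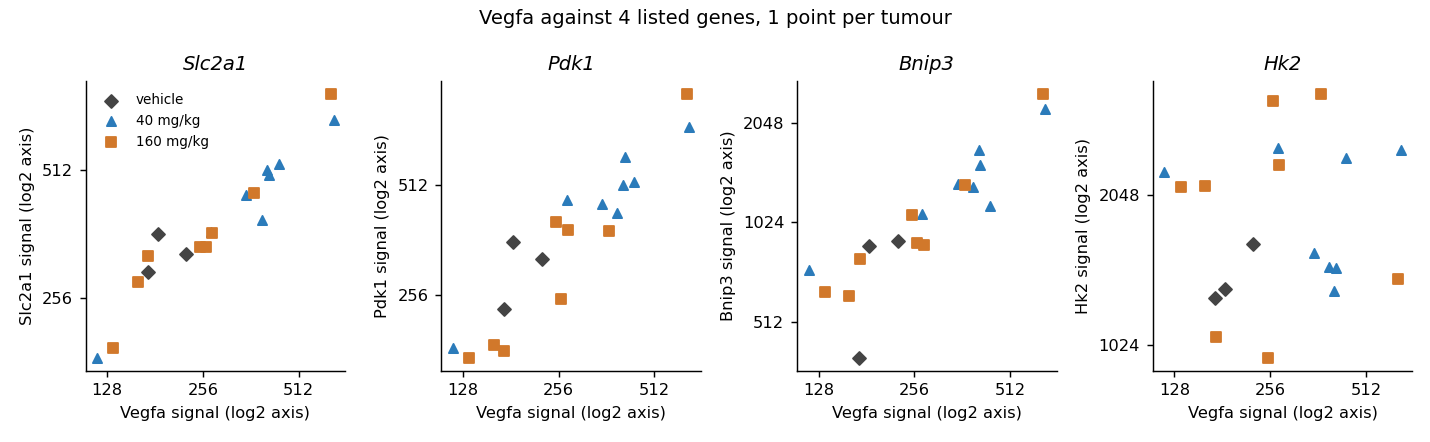
Each point is a tumour, with Vegfa signal on the x axis and the signal of the named gene on the y axis, both on log2 axes. Slc2a1, Pdk1 and Bnip3 rise with Vegfa over the treated tumours of both doses (r = 0.97, 0.95 and 0.94), and Hk2 shows no such order (r = -0.04).

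Over the 16 treated tumours, some enzymes of glycolysis did not follow Vegfa. Hk2 had r = -0.04, and the tumour with the most Hk2, 160 mg/kg tumour 2 at 3258, had a Vegfa signal of 370. Pfkm had r = 0.04, Ldhb 0.09 and Pfkfb4 0.12. Without the 2 tumours farthest from the median of Vegfa, which were those with least Vegfa, r was 0.55 for Pfkm and 0.38 for Ldhb, so their place among these enzymes rests on those tumours. Pfkm and Ldhb went opposite ways by dose, with r = -0.69 and -0.63 over the lower dose group and 0.65 and 0.39 over the higher, a difference that was not tested. Summed muscle markers had r = -0.64 with Vegfa over the lower dose group and -0.04 over the higher. They were highest, at 17630, in 40 mg/kg tumour 5, which was 1 of the 2 tumours with least Vegfa. The part of muscle in the values of the muscle-type Pfkm was not tested. The steps from Aldoa to Pkm lay between, with r from 0.55 for Pkm to 0.85 for Pgk1.

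Within a dose the relation had a similar median, 0.74 at 40 mg/kg and 0.77 at 160 mg/kg, where all genes had 0.06 and 0.05. Here r was above 0 for 25 and 29 members and above 0.8 for 13 in each dose. With 8 tumours the smallest exact p is 2.48e-05, and 0 members and 0 genes passed over all genes, while 14 members at 40 mg/kg and 15 at 160 mg/kg had an unadjusted exact permutation p under 0.05, where 8.67% and 8.48% of genes did. Without the 2 tumours farthest from the median of Vegfa, 40 mg/kg tumour 5 and 160 mg/kg tumour 3, the median r was 0.67 and 5 members passed. Without the 2 tumours with most Vegfa, tumour 8 of each dose, the median was 0.57, 8 members exceeded 0.8 (0.126% of genes) and 0 passed. Without all 4 of these tumours the median was 0.47, 5 members exceeded 0.8 (0.171% of genes) and 0 passed. In those 12 tumours Slc2a1 had r = 0.93, Bnip3 0.89, Pdk1 0.89, Pfkfb3 0.84 and Pfkl 0.81.

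**Figure D5:**
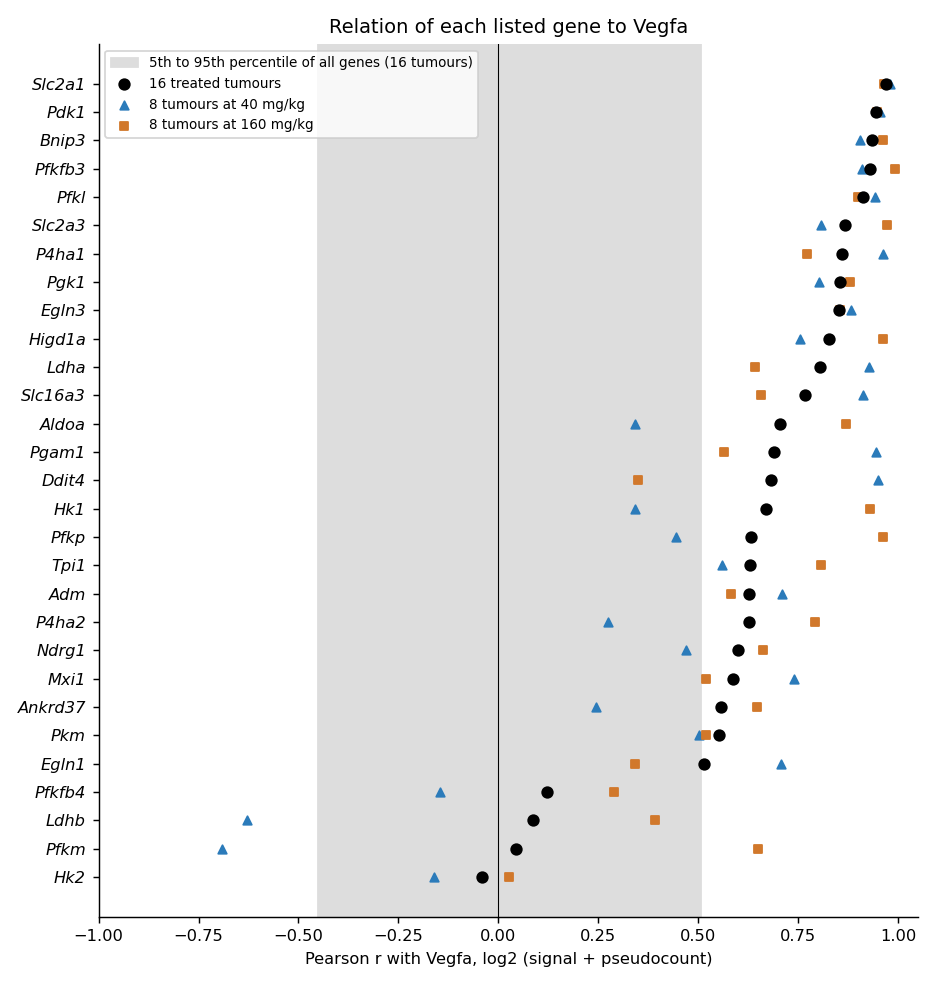
Pearson's r with Vegfa is shown for 29 members over all 16 treated tumours (circles) and within 40 mg/kg (triangles) and 160 mg/kg (squares), and grey covers the 5th to 95th percentile of all genes, from -0.45 to 0.51. In 25 members the circle lies to the right of the grey band, and Pfkfb4, Ldhb, Pfkm and Hk2 lie inside it.

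Other genes related to Vegfa were few, and they were picked out after their values were seen. Outside the list, 5 genes passed. Esm1 (r = 0.88) and Angpt2 (r = 0.87) are products of activated blood vessel endothelium, and Fos (r = 0.86) is an immediate early gene. Ciz1 (r = 0.84) and Tmem128 (r = -0.91) completed them. The endothelial marker list itself had a median r of -0.23, with 2 of 6 genes above 0. Of 27 other hypoxia targets, 24 had r above 0 (median 0.48), and Bhlhe40 (0.81), Igfbp3 (0.79), Ero1a (0.76) and Kdm3a (0.71) led them, with 0 of 27 passing. The HIF pathway genes had a median r of 0.03 over 13, with 0.52 for Vhl and -0.36 for Hif1a, and 0 passed. The median was 0.05 over 18 genes of the citric acid cycle, -0.03 over 21 of the respiratory chain and -0.10 over 7 of the pentose phosphate pathway. Measures of tissue and RNA were set against Vegfa in the same way, 12 in all. The array median had r = 0.53 and the ratio of 3′ to 5′ Gapdh signal r = 0.53, each with an adjusted permutation p = 0.219. The summed muscle, adipocyte, erythroid and fibroblast markers had r = -0.31, -0.47, 0.46 and -0.34. Medulloblastoma and astrocyte markers had 0.34 and 0.31. Within 40 and 160 mg/kg, r was -0.70 and -0.59 for fibroblast markers and 0.77 and -0.30 for erythroid markers. For skin epithelium markers it was 0.76 and -0.52, and 0.05 over all 16 tumours. For the Gapdh ratio it was 0.69 and 0.46 within the doses, and for the array median -0.06 and 0.74. Without the 2 tumours farthest from the median of Vegfa, r was 0.04 for muscle markers, 0.66 for the Gapdh ratio and 0.56 for the array median. None of the 12 measures passed. With each array's median subtracted, the median r of the members was 0.59 and 6 passed. The part of depth and tissue in the relation was not otherwise tested.

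The rest of these pathways was compared with vehicle through lists of named genes. Of 13 genes of the HIF pathway itself, 0 passed, and the signal of Hif1a was 2055 ± 72.1 with vehicle (SD, n = 3), against 1924 ± 211 at the lower and 2075 ± 306 at the higher dose (SD, n = 8). Of 27 other hypoxia targets, 3 rose and 0 fell in resistant tumours, where 2.86% of all genes rose and 2.46% fell. Nupr1, a stress-induced nuclear protein, was 23.6 ± 10.5 with vehicle (SD, n = 3), rose to 69.9 ± 18.9 at the lower dose and 49.5 ± 10.3 at the higher (SD, n = 8), and exceeded every vehicle tumour in 16 of 16 (log2 difference 1.29, SE 0.23, adjusted p = 0.00453). Of all 13454 genes, 269 exceeded every vehicle tumour in 16 of 16. Vldlr, a lipoprotein receptor that also guides migrating neurons, rose with a log2 difference of 1.13 (SE 0.28, adjusted p = 0.0256), and the ubiquitin ligase adaptor Wsb1 with 0.42 (SE 0.11, adjusted p = 0.0367). Gys1, glycogen synthase, fell at 160 mg/kg (log2 change -0.72, SE 0.20, adjusted p = 0.0443). Of 16 other isoforms and branches of glycolysis, 1 rose, Aldoc, the brain aldolase, which was 43.6 ± 14.8 with vehicle (SD, n = 3), 191 ± 79.4 at the lower and 203 ± 113 at the higher dose (SD, n = 8), with a log2 difference of 1.93 (SE 0.55, adjusted p = 0.0489). Aldoc is also an astrocyte marker, and of the 5 astrocyte markers Gja1 fell (log2 difference -1.40, SE 0.35, adjusted p = 0.0283). On the mitochondrial side, 1 of 12 genes of pyruvate dehydrogenase and pyruvate carriers rose, the carrier Mpc1 (0.47, SE 0.12, adjusted p = 0.034), and 1 of 18 of the citric acid cycle and its shuttles, the transaminase Got1 (1.00, SE 0.25, adjusted p = 0.0263). Of 21 respiratory chain genes 0 passed in resistant tumours and 2 rose at 160 mg/kg, where 2.46% of all genes rose and 2.45% fell, Atp5a1 (0.30, SE 0.08, adjusted p = 0.0459) and Ndufa9 (0.42, SE 0.12, adjusted p = 0.0497). Of 7 genes of the pentose phosphate pathway Rpia fell (-0.48, SE 0.14, adjusted p = 0.048), and Prps1 rose at 160 mg/kg (0.47, SE 0.12, adjusted p = 0.0356). With each array left out in turn, every call given here with an adjusted p kept its sign, and every one was lost without at least 1 vehicle tumour. Nupr1 passed in 18 of 19 such fits for resistant tumours (lost without vehicle tumour 2), Mpc1 in 17, Vldlr, Got1 and Gja1 in 16 and Wsb1 in 14, whereas Aldoc passed in 4 and Rpia in 6. At 160 mg/kg, Prps1 passed in 17, Gys1 in 7, Atp5a1 in 5 and Ndufa9 in 4.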

How the data were processed

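The deposited table gives a MAS5 signal intensity for each of 45101 probe sets, per the submitters' processing notes. The sources used here do not state how arrays were scaled. The trimmed mean signal, which leaves out the extreme values, was 150 on every array, so the deposited values already share this scale. The authors' series text names a smaller array than the platform annotation used for gene names. The values were analysed on the log2 scale as log2 (deposited signal + 2.5), the 10th percentile of all values, so fold changes of dim genes are understated. Control probe sets were left out, and a probe set was kept if 3 or more arrays had it above their 40th percentile. A fit of 3 group means (limma 3.58.1, lmFit and eBayes with a variance trend, R 4.3.3, 16 residual degrees of freedom) was adjusted by Benjamini-Hochberg over 31143 probe sets, and it was tested on simulated data. A gene was read from its kept probe set with the highest mean. The members and lists were chosen with earlier results of these data known. Values in every tumour are given for members called, or among the 4 largest differences or the 4 smallest p in a comparison. Correlations with Vegfa were adjusted over all genes, not over the members as first planned. Same-numbered tumours of different groups did not deviate together (0 of 14 correlations above 0.1), so no shared effect of replicate number was seen. Such a check cannot exclude pairing, and the main fit treated the tumours as unpaired. The alternatives were quantile normalization, array medians subtracted, other pseudocounts and filters, no variance trend, weights for arrays, separate fits per comparison, a replicate block and arrays left out.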

Additional observations from a re-analysis of the deposited data

Results flagged for a closer look

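In the 2 treated groups, each of 8 tumours, the highest and the lowest tumour were compared with the nearest other tumour for each of the 30 members, 60 groups in all, of which chance marks about 1 in 20. In 5 groups a tumour stood apart. Slc2a3, the neuronal glucose carrier, was 1833.6 in 160 mg/kg tumour 8, and the next tumour had 951.5. Higd1a of the respiratory chain was 3003.4 in 40 mg/kg tumour 8, and the next had 1733.7. Pdk1, the pyruvate dehydrogenase kinase, was 183.4 in 40 mg/kg tumour 5, and the next lowest had 429.6. Ddit4, which restrains mTOR, was 681.0 in the same tumour, and the next lowest had 1451.0. This tumour also had the highest summed muscle markers, 17630, and the part of muscle in its low values was not tested. The lactate exporter Slc16a3 was 2.5 in 160 mg/kg tumour 3, and the next lowest had 21.2. The low tumours were those with least Vegfa, and the high ones those with most.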

How the results depend on the processing

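With 3 vehicle tumours the precision of every comparison with vehicle is low, and 0 calls among the members says little about differences of the size seen. The count of members called in resistant tumours was 1 with quantile normalization and 1 with array medians subtracted (P4ha2 in both), 6 with array weights, 1 with the replicate block (Slc2a3), and 0 to 1 when each array was left out. At 40 mg/kg it was 1 with quantile normalization, 9 with array weights and 5 with the compared groups alone, and at 160 mg/kg it was 2 with array weights. All these calls were higher in treated tumours. Of the probe sets, 1392, 668 and 1260 were called for resistant tumours, 40 mg/kg and 160 mg/kg. These became 8907, 7452 and 6145 with array weights, 274, 169 and 220 without vehicle tumour 3 and 160 mg/kg tumour 2, and 243 to 1662, 120 to 915 and 217 to 1544 with each array left out, the lowest without vehicle tumour 3. With the replicate block they were 819 and 324 for resistant tumours and 40 mg/kg, and with the compared groups alone 1553 at 40 mg/kg and 629 at 160 mg/kg. Between the doses 0 probe sets were called, and 1 without the variance trend. With array medians subtracted, the split of higher and lower calls went from 822 and 570 to 825 and 199 in resistant tumours. The count of members related to Vegfa, 10, was 6 with array medians subtracted, 5 without the 2 tumours farthest from its median, and 0 within 40 mg/kg, 0 within 160 mg/kg, 0 without the 2 tumours with most Vegfa and 0 without those 4, and these last 2 settings were chosen after seeing the data. With 8 tumours the smallest exact p, before adjustment over 13453 genes, is 2.48e-05. A count of 0 within a dose therefore cannot show a lost relation. The smallest permutation p, 1e-05, also limits the counts in the last 2 settings. The median r of the members was 0.74 and 0.77 within the doses, and 0.57 and 0.47 in those last 2 settings. The cause of the changes in all these counts was not tested. The other 209 counts under alternatives were within 1.5 times.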
